A study of Mus musculus with 9 samples.

Results

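The genes of oxidative phosphorylation were followed across 9 RNA libraries of C2C12 myotubes, in both the nuclear and the mitochondrial genome. A gene belonged to the set when its symbol began with mt-, Nduf, Uqcr, Cox4 to Cox8 or Atp5, or was Sdha, Sdhb, Sdhc, Sdhd, Cyc1 or Cycs. Of the 10716 genes in the deposited table, 111 met this rule. They comprised 80 nuclear-encoded subunits and cytochrome c (Cycs), 81 genes together, and 15 mitochondrially encoded genes, of which 13 code for proteins and 2 for ribosomal RNAs. The remaining 15 were 8 complex I assembly factors of the Ndufaf family, 5 gene copies or pseudogenes, the ATP synthase inhibitor Atp5if1 and the supercomplex factor Cox7a2l.

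C2C12 is an established mouse myoblast line whose cells fuse into multinucleated myotubes. Myotubes were exposed for 24 h to a combination of 50 µM dexamethasone and 10 µM THSG, to 50 µM dexamethasone without THSG, or to vehicle, and 3 libraries were made per group. Dexamethasone is a synthetic glucocorticoid that is used to model muscle atrophy, and THSG is given in the labels by this abbreviation only. No group received THSG alone, so the THSG libraries were set against dexamethasone and against vehicle. All libraries carry the name of 1 cell line in their titles, although the field for the line gives a name with a rising number, and the titles were followed. The labels do not say whether the 3 libraries of a group came from separate cultures, so the p-values measure the spread between libraries only.

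Oxidative phosphorylation couples electron transport along the inner mitochondrial membrane to ATP synthesis. Complex I (NADH dehydrogenase) and complex II (succinate dehydrogenase) feed electrons to complex III, cytochrome c carries them to complex IV (cytochrome c oxidase), and complex V (ATP synthase) uses the resulting proton gradient. All of these complexes except complex II and cytochrome c contain proteins from both genomes, and skeletal muscle is among the tissues with the highest demand for them.

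The values are fractional and were taken to be FPKM, a read count scaled to transcript length and library size, so levels of different genes are compared per length. Summed values ranged from 400218 to 422379 FPKM per library, with medians between 12.1 and 12.8 FPKM and correlations across genes within a group between 0.991 and 0.994. The number of reads behind each value is unknown. All 20 myotube markers sought were present (among them Myh1, Myh8, Actn2 and Atp2a1), with summed levels of 14480 to 14770 FPKM in dexamethasone plus THSG, 13660 to 14720 FPKM in dexamethasone and 12630 to 14110 FPKM in vehicle libraries. Of these markers, 13 rose and 1 fell with dexamethasone against vehicle (65% and 5%), and 13 rose and 0 fell with dexamethasone plus THSG against vehicle. Of all genes, 12.7% rose and 20.9% fell in the first comparison, and 12.1% rose and 17% fell in the second. Markers of myoblasts and reserve cells, 10 of 11 in the table, included 3 that rose and 6 that fell in each of these comparisons, with sums of 183.5 to 188.7, 172.3 to 186.5 and 185.9 to 191.6 FPKM in dexamethasone plus THSG, dexamethasone and vehicle libraries. None of 4 adipocyte markers was in the table. The 4 of 6 fibroblast or mesenchymal markers in the table (Col1a1, Col3a1, Dcn and Pdgfra) summed to 426.6 to 427.1 FPKM in dexamethasone plus THSG, 397.2 to 412.2 FPKM in dexamethasone and 723.7 to 779.5 FPKM in vehicle libraries, with 1 that rose and 3 that fell in each comparison with vehicle. The part of these markers in the results was not tested, and in bulk RNA fewer cells of a type and less RNA per cell cannot be told apart.

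Per-length levels differed widely between the genomes. Nuclear subunit genes had mean levels from 7.49 FPKM for Cox7a1, a muscle isoform of complex IV, to 577 FPKM for Atp5f1b, the catalytic beta subunit of ATP synthase. The mitochondrial protein genes ran from 446 FPKM for mt-Nd3, a membrane subunit of complex I, to 13710 FPKM for mt-Atp8, a small subunit of ATP synthase. The ribosomal RNAs mt-Rnr1 and mt-Rnr2, which form the mitochondrial ribosome, averaged 194 and 231 FPKM in these mRNA libraries. Among nuclear genes, median levels in the vehicle group were 191.8 FPKM for complex V, 150.0 FPKM for complex IV, 112.8 FPKM for complex III, 64.6 FPKM for complex I and 61.7 FPKM for complex II.

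The mitochondrial genome took a larger share of the summed FPKM than all nuclear subunits together. Its share was 11.8, 10.8 and 11.5% in the dexamethasone plus THSG libraries, 11.8, 11.5 and 14% in the dexamethasone libraries, and 10.5, 12 and 10.8% in the vehicle libraries. Dexamethasone replicate 3 stood above every other library, and the other 8 libraries overlapped between groups. Nuclear subunits took 2.32, 2.25 and 2.26% in dexamethasone plus THSG libraries, 2.24, 2.22 and 2.09% in dexamethasone libraries, and 2.41, 2.34 and 2.24% in vehicle libraries. Dexamethasone replicate 3 was the lowest of all 9 libraries here. The mitochondrial to nuclear ratio was 4.99 ± 0.18 with dexamethasone plus THSG, 5.71 ± 0.86 with dexamethasone and 4.78 ± 0.37 with vehicle (SD, n = 3 each). Without replicate 3, the mitochondrial share with dexamethasone was 11.64 ± 0.16% (SD, n = 2), which lies inside the range of the vehicle libraries. Such a sum weighs the genes with the highest values most, above all mt-Atp8 (mean 13710 FPKM). Gene by gene, the median log2 difference from vehicle without that replicate was 0.15, with 13 of 15 positive.

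**Figure D1:**
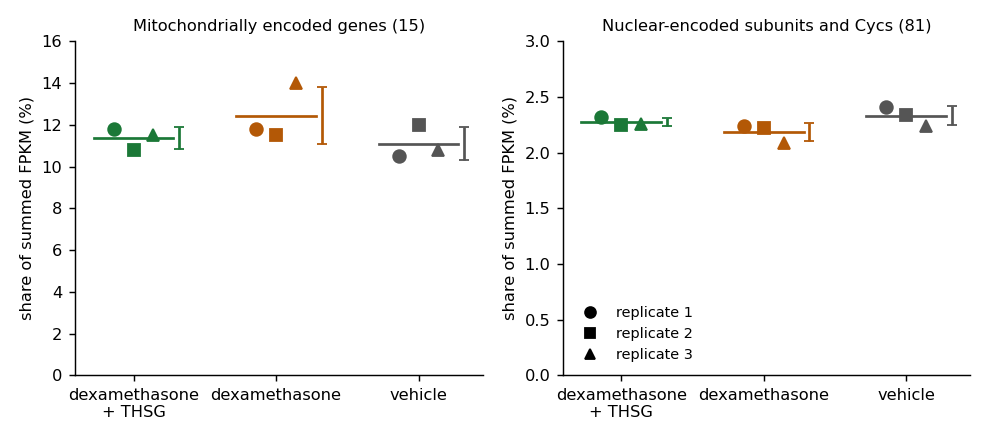
Share of the summed FPKM (%) held by the 15 mitochondrially encoded genes (left) and by the 81 nuclear-encoded subunits and Cycs (right); each symbol is a library, lines are group means and bars are SD. Dexamethasone replicate 3 is the highest library on the left (14%) and the lowest on the right (2.09%).

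Dexamethasone against vehicle asks how the glucocorticoid alters these genes. Nuclear subunit genes that passed the test were mostly lower with dexamethasone, led by the complex I subunit Ndufb2 and the muscle complex IV isoform Cox8b, while the other muscle isoform Cox6a2 was higher. Mitochondrially encoded genes that passed were all higher, led by the ribosomal RNAs. In the fit over all genes (limma, adjusted p under 0.05), 21 of the 81 nuclear genes were called, 3 higher and 18 lower. The background among all 10716 genes was 33.6% called, 12.7% higher and 20.9% lower, against 25.9%, 3.70% and 22.2% of the nuclear genes. The share of nuclear genes that fell was near the background in this fit and below it in some others. It was 8.64% against 17.7% of all genes without dexamethasone replicate 3, and 8 of 81 against 16.5% of all genes after scaling by median ratios. It was not below the background in every fit. Without vehicle replicate 3, 20 of the 21 nuclear calls held and further genes were added, while 19% of all genes fell. Groups did not overlap for 5 nuclear genes that were higher and 20 that were lower (24.7%), against 45.9% of all genes, 27.9% in the lower direction. Among all called genes 37.8% were higher, and this became 49.6% after scaling by median ratios and 50.5% after quantile normalization. The median log2 difference of the 81 nuclear genes was -0.10, against -0.05 over all genes, and it stayed negative under every scaling tried (-0.08 to -0.06).

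Of the 15 mitochondrially encoded genes, 4 rose and 0 fell, which is 26.7% against 12.7% of all genes called higher. The 4 included both ribosomal RNAs, and of the 13 protein genes 2 rose (15.4%, near the 12.7% of all genes). Their median log2 difference was 0.22, with 14 of 15 positive, and lay between 0.09 and 0.27 under the scalings tried. Leaving out dexamethasone replicate 3 left 9 nuclear calls, 8 of them among the 21, and 3 mitochondrial calls, with a background of 28.7% called. The 3 mitochondrial calls were all higher (20%, against 11% of all genes), with 1 among the 13 protein genes (7.69%). The nuclear and mitochondrial medians were then -0.08 and 0.15. Leaving out vehicle replicate 1 or 2 left 8 and 10 nuclear calls, and leaving out vehicle replicate 2 gave 8 mitochondrial calls. Omission of vehicle replicate 3 kept 20 of the 21 nuclear calls and added others. The 6 nuclear genes Cox6a2, Cox8b, Ndufb2, Ndufb4, Ndufb7 and Ndufc2 and the 3 mitochondrial genes mt-Nd4, mt-Rnr1 and mt-Rnr2 were called in all 21 alternatives run.

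**Figure D2:**
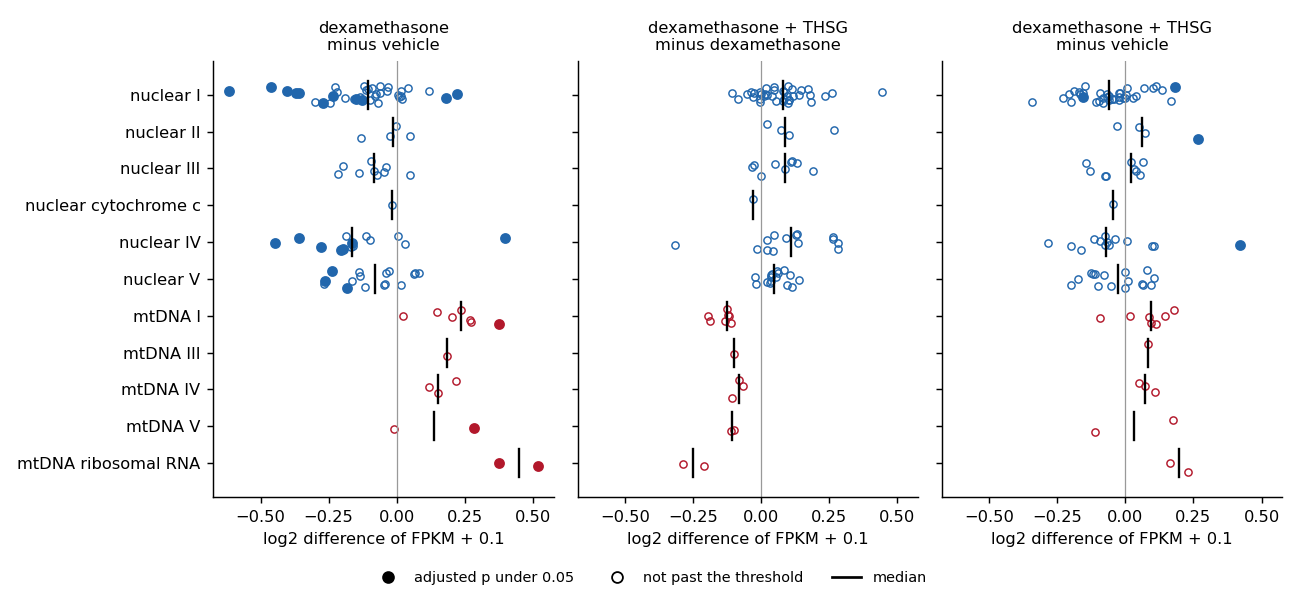
Log2 differences of FPKM + 0.1 for each gene (points) by encoding genome and complex, in the 3 comparisons; filled points passed the test and bars are medians. Nuclear complexes I and IV lie mostly to the left in dexamethasone minus vehicle (medians -0.10 and -0.17), and all mitochondrial genes except mt-Atp8 (-0.01) lie to the right.

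**Figure D3:**
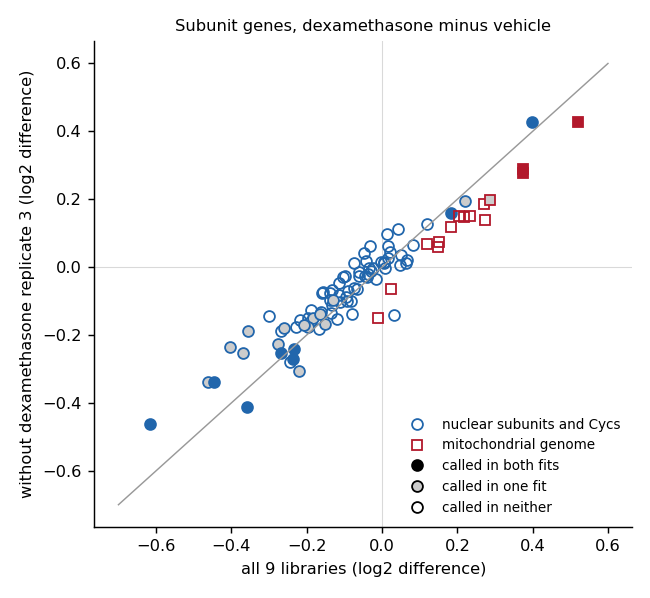
Log2 difference between dexamethasone and vehicle in all 9 libraries (x axis) and without dexamethasone replicate 3 (y axis) for the 81 nuclear and 15 mitochondrial genes; the line marks equal values. Of the 21 nuclear calls, 8 remained, and 3 of the 4 mitochondrial calls did.

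Complex I held 11 of the nuclear calls among 37 genes, 2 higher and 9 lower, with a median of -0.10. The 29.7% called and 24.3% lower were near the 33.6% and 20.9% of all genes, and without dexamethasone replicate 3 the 16.2% called (6 of 37) compared with 28.7%. Ndufb2, an accessory membrane subunit, read 54.9, 46.1 and 47.5 FPKM in dexamethasone plus THSG libraries, 36.2, 44.9 and 29.2 FPKM in dexamethasone libraries, and 66.0, 52.7 and 49.6 FPKM in vehicle libraries. Dexamethasone and vehicle libraries did not overlap, with dexamethasone replicate 3 lowest. The log2 difference was -0.62 ± 0.14 (SE, adjusted p = 0.00568), the largest fall among the subunits, and -0.46 without that replicate (adjusted p = 0.0203).

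Other accessory subunits fell less. Ndufb7 read 125, 128 and 139 FPKM with dexamethasone plus THSG, 120.3, 113 and 112 FPKM with dexamethasone, and 154, 134 and 129 FPKM with vehicle. Its dexamethasone libraries were lower than all others (log2 against vehicle -0.27 ± 0.07 SE, adjusted p = 0.00890), also without replicate 3 (-0.25, adjusted p = 0.0324). Ndufc2 read 51.0, 51.3 and 52.9 FPKM in dexamethasone plus THSG libraries, 49.4, 48.0 and 49.4 FPKM in dexamethasone libraries, and 61.0, 60.5 and 51.7 FPKM in vehicle libraries. All dexamethasone libraries of Ndufc2 lay below all vehicle libraries (log2 -0.23, adjusted p = 0.0108). Ndufab1, an acyl carrier protein that is also a complex I subunit, read 25.4, 21.6 and 22.7 FPKM with dexamethasone plus THSG, 17.9, 19.4 and 20.9 FPKM with dexamethasone, and 26.6, 27.1 and 21.3 FPKM with vehicle. Its log2 difference was -0.36 ± 0.10 (SE, adjusted p = 0.0141) and -0.41 without dexamethasone replicate 3 (adjusted p = 0.0150).

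The subunits Ndufa1, Ndufa2, Ndufb10 and Ndufv3 also fell, with log2 differences of -0.46, -0.37, -0.15 and -0.40, but none of these passed without dexamethasone replicate 3 (adjusted p from 0.0585 to 0.111). Libraries of the 2 groups overlapped for Ndufa1 and Ndufa2. Ndufs5, an accessory subunit that did not pass with all libraries (adjusted p = 0.0840), passed without that replicate (log2 -0.31, adjusted p = 0.0260).

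A pair of complex I genes rose. Ndufb4, an accessory membrane subunit, read 36.4, 34.6 and 35.8 FPKM in dexamethasone plus THSG libraries, 34.6, 35.4 and 36.8 FPKM in dexamethasone libraries, and 32.6, 31.0 and 30.4 FPKM in vehicle libraries. The dexamethasone libraries all lay above the vehicle libraries (log2 0.18 ± 0.05 SE, adjusted p = 0.0125). Its copies Ndufb4b and Ndufb4c averaged 12.2 and 17.8 FPKM with dexamethasone and 13.2 and 17.6 FPKM with vehicle and were not called; how the authors' counting divided reads among these copies is not given in the sources used here. Ndufs1, the largest core subunit with iron-sulfur clusters, read 50.3, 43.0 and 47.1 FPKM with dexamethasone plus THSG, 48.3, 49.3 and 51.3 FPKM with dexamethasone, and 40.4, 44.9 and 42.6 FPKM with vehicle. Its log2 difference was 0.22 ± 0.06 (SE, adjusted p = 0.0170), and without dexamethasone replicate 3 it no longer passed (0.20, adjusted p = 0.0597). The flavoprotein core subunit Ndufv1 and the subunits Ndufa9 and Ndufb8 did not pass, with log2 differences of -0.10, 0.00 and -0.03.

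Complex II, the enzyme shared with the citrate cycle, had 0 of 4 genes called in dexamethasone against vehicle (33.6% of all genes were called). Complex II also had 0 genes with an unadjusted p under 0.05 in limma, against 43.5% of all genes. Sdha, its flavoprotein, read 75.9, 76.3 and 78.4 FPKM with dexamethasone plus THSG, 76.6, 73.2 and 77.2 FPKM with dexamethasone, and 74.6, 69.8 and 74.8 FPKM with vehicle. The 95% interval of its log2 difference between dexamethasone and vehicle ran from -0.05 to 0.15. Sdhb, the iron-sulfur subunit, and the membrane anchor Sdhd had log2 differences of -0.02 and -0.13. Sdhc, the other anchor, differed by -0.00 (95% interval -0.16 to 0.16).

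Complex III had 0 of 9 genes called, against 33.6% of all genes. Of the 9, 3 had an unadjusted p under 0.05 (limma), all lower (33.3%, against 27.3% of all genes in the lower direction). The smallest adjusted p, 0.0504, belonged to the small subunit Uqcrq (log2 -0.20). Uqcrc1, a core subunit, read 65.1, 66.9 and 69.5 FPKM with dexamethasone plus THSG, 63.1, 59.7 and 53.9 FPKM with dexamethasone, and 69.3, 62.5 and 62.7 FPKM with vehicle. Dexamethasone replicate 3 was again lowest, and the dexamethasone and vehicle groups overlapped (log2 -0.14, adjusted p = 0.111). The other core subunit Uqcrc2, the Rieske protein Uqcrfs1 and cytochrome c1 (Cyc1) had log2 differences of 0.05, -0.09 and -0.08. Cycs itself read 25.1, 23.9 and 20.8 FPKM with dexamethasone plus THSG, 23.6, 23.1 and 24.3 FPKM with dexamethasone, and 25.04, 24.9 and 21.9 FPKM with vehicle. All 3 groups of Cycs overlapped, with a 95% interval from -0.18 to 0.15 between dexamethasone and vehicle.

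Complex IV had 7 of 14 genes called, 1 higher and 6 lower, and a median of -0.17. The 50% called and 42.9% lower were above the 33.6% and 20.9% of all genes. Without dexamethasone replicate 3, 2 of the 14 were called (14.3%, against 28.7% of all genes), Cox6a2 higher and Cox8b lower. Several of its subunits exist as a widespread and a heart and muscle isoform, which makes the isoform pairs of interest in myotubes. The muscle isoform Cox6a2 read 24.2, 19.2 and 20.9 FPKM in dexamethasone plus THSG libraries, 20.9, 22.1 and 20.1 FPKM in dexamethasone libraries, and 16.8, 17.3 and 13.9 FPKM in vehicle libraries. Every vehicle library lay below every other library. The log2 difference between dexamethasone and vehicle was 0.40 ± 0.10 (SE, adjusted p = 0.00803), and 0.43 without dexamethasone replicate 3 (adjusted p = 0.0153).

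Its widespread partner Cox6a1 moved the other way. Cox6a1 read 172, 194 and 165 FPKM with dexamethasone plus THSG, 162, 164 and 156 FPKM with dexamethasone, and 198, 185 and 170.4 FPKM with vehicle. The dexamethasone libraries all lay below the vehicle libraries (log2 -0.20, adjusted p = 0.0401), but the call was lost without dexamethasone replicate 3 (-0.18, adjusted p = 0.113) and the sign turned with a correction for GC content and length (0.0022). Cox6a2 made up 12.4, 9.02 and 11.2% of the summed FPKM of the pair in dexamethasone plus THSG libraries, 11.4, 11.9 and 11.4% in dexamethasone libraries, and 7.83, 8.57 and 7.55% in vehicle libraries. This share was higher in all 6 libraries with dexamethasone than in any vehicle library.

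The Cox8 pair fell together. Muscle isoform Cox8b read 30.5, 25.2 and 26.3 FPKM in dexamethasone plus THSG libraries, 24.8, 23.4 and 19.2 FPKM in dexamethasone libraries, and 32.2, 30.7 and 28.5 FPKM in vehicle libraries. Dexamethasone libraries lay below both other groups, with replicate 3 lowest (log2 against vehicle -0.45 ± 0.10 SE, adjusted p = 0.00400; -0.34 and adjusted p = 0.0129 without that replicate). Widespread isoform Cox8a read 203, 198 and 201 FPKM with dexamethasone plus THSG, 164, 178 and 154 FPKM with dexamethasone, and 231, 201 and 173 FPKM with vehicle. Dexamethasone and vehicle overlapped for Cox8a (log2 -0.28, adjusted p = 0.0291), and the call was lost without replicate 3 (-0.23, adjusted p = 0.107). The share of Cox8b in its pair was 11.95 ± 0.97% with dexamethasone plus THSG, 11.9 ± 1.05% with dexamethasone and 13.2 ± 0.96% with vehicle (SD, n = 3 each), and these groups overlapped. The third muscle isoform, Cox7a1, varied most within groups, with 10.9, 5.67 and 3.83 FPKM with dexamethasone plus THSG, 6.22, 7.53 and 9.83 FPKM with dexamethasone, and 8.85, 9.53 and 5.10 FPKM with vehicle, so that its 95% interval ran from -0.70 to 0.76. Its partner Cox7a2 had a log2 difference of -0.19 (adjusted p = 0.0596).

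**Figure D4:**
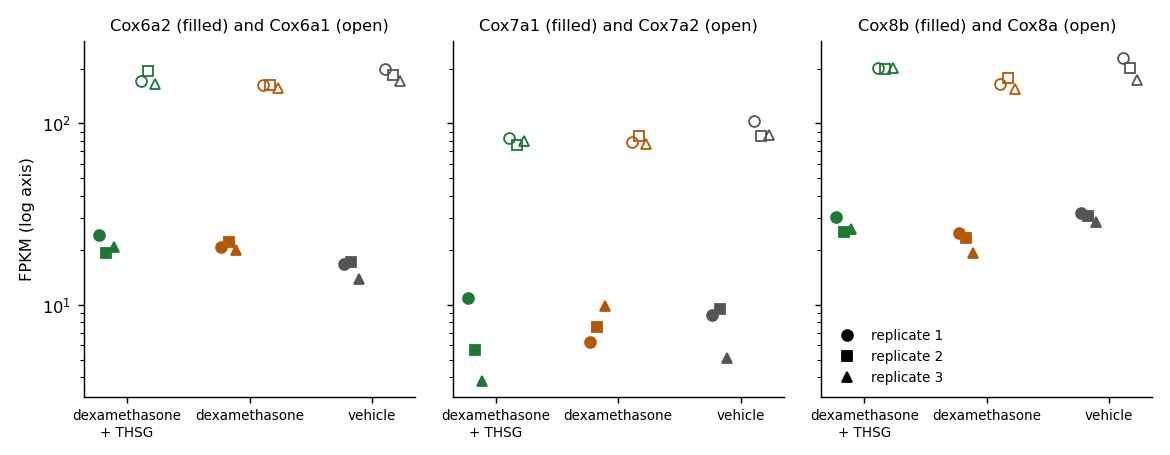
FPKM per library (log axis) of the muscle isoforms Cox6a2, Cox7a1 and Cox8b (filled) and their widespread partners (open) by group. Cox6a2 is lower in all 3 vehicle libraries (13.9 to 17.3 FPKM) than in the other 6, whereas Cox8b is lowest with dexamethasone (19.2 to 24.8 FPKM).

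The promoters of these isoform genes are shown because members of the same pairs differed in direction or moved together. The sequences are from RefSeq on the mouse build GRCm38.p6 and cover 250 bases before and 50 bases after the gene start, in the direction of the gene. Capitals mark matches, on either strand, to the E-box CAGCTG (bound by myogenic regulators), the TATA box TATAAAA, the GABP motif CCGGAAGT and the NRF1 motif, GCGCA followed directly by TGCGC. The Cox8b window lies at chr7:140900397-140900696, that of Cox8a at chr19:7217567-7217866 and that of Cox6a1 at chr5:115348909-115349208, all on the minus strand.
Cox8b: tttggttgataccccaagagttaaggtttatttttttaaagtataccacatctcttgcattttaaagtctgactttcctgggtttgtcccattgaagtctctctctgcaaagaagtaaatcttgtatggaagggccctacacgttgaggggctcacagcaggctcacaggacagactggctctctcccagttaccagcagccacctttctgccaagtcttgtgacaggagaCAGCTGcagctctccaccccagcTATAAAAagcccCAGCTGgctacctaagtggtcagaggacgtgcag
Cox8a: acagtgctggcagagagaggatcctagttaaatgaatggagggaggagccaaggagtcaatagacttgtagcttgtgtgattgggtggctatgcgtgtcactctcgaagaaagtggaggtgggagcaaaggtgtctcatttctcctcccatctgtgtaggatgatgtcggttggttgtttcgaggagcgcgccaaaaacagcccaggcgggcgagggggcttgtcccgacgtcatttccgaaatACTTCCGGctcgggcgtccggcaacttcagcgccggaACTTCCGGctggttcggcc
Cox6a1: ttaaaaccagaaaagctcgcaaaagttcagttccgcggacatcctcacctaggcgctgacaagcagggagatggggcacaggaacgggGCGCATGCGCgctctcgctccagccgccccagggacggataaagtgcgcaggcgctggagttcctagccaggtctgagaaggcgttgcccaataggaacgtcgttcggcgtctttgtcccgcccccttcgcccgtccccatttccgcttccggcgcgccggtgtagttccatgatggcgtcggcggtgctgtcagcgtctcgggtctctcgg
Cox8b held 2 E-boxes and 1 TATA box, Cox8a 2 GABP motifs and Cox6a1 1 NRF1 motif. Cox6a2 is named only. None of these matches overlaps another. Promoters were matched for 66 of the 81 nuclear genes, and 5 of them (7.58%) held the NRF1 motif, against 2.47% of the 8476 genes of the table with a promoter. The GABP motif was in 5 of 66 (7.58%) and in 10.0% of all, the E-box in 6 (9.09%) and in 17.8% of all, and the TATA box in 3 (4.55%) and in 3.02% of all. The glucocorticoid response element, AGAACA and TGTTCT with any 3 bases between, was in 0 of the 66 and in 1 of the 8476. A match describes letters in this window only.

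Among the remaining complex IV genes, Cox5b, a nuclear subunit on the matrix side, read 114, 114 and 110.0 FPKM with dexamethasone plus THSG, 107, 104 and 74.3 FPKM with dexamethasone, and 133, 122 and 108 FPKM with vehicle. Dexamethasone replicate 3 lay far below the other libraries, and the log2 difference of -0.36 (adjusted p = 0.0372) became -0.19 without it (adjusted p = 0.0885). The structural subunit Cox6b1 and Ndufa4, first described as a complex I protein and now placed in complex IV, fell, with log2 differences of -0.16 and -0.21, and likewise passed only with that replicate. The regulatory subunit Cox4i1 was not called (log2 0.00, 95% interval -0.13 to 0.14), but was with the GC and length correction (0.12, adjusted p = 0.0413), and Cox5a and Cox7b did not pass.

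Complex V had 3 of 16 genes called (18.8%, against 33.6% of all genes), all lower: Atp5f1e, the epsilon subunit, Atp5mc2, a gene for the c-ring, and Atp5mf, a membrane subunit. Atp5mf read 115, 111 and 115 FPKM in dexamethasone plus THSG libraries, 115, 102 and 116 FPKM in dexamethasone libraries, and 125, 146 and 122 FPKM in vehicle libraries. All vehicle libraries were higher than the others (log2 -0.24 for dexamethasone, adjusted p = 0.0209; -0.27 and adjusted p = 0.0244 without dexamethasone replicate 3). The calls of Atp5f1e (log2 -0.26) and Atp5mc2 (-0.18) were lost without that replicate, and the sign of Atp5mc2 turned with the GC and length correction (0.019). Genes of the catalytic core had narrow intervals around 0, from -0.13 to 0.05 for Atp5f1a (alpha) and from -0.08 to 0.11 for Atp5f1b (beta). The c-ring genes Atp5mc1 and Atp5mc3 had log2 differences of -0.16 (adjusted p = 0.0524) and -0.04. Atp5mc1 passed with the GC and length correction (-0.19, adjusted p = 0.0250).

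Mitochondrial ribosomal RNA showed the largest differences of the mitochondrial genome. The small ribosomal RNA mt-Rnr1 read 198, 172 and 197 FPKM in dexamethasone plus THSG libraries, 213, 219.7 and 262 FPKM in dexamethasone libraries, and 144, 178 and 162 FPKM in vehicle libraries. Dexamethasone libraries lay above all others. Its log2 difference was 0.52 ± 0.09 (SE, adjusted p = 0.00105), and 0.43 without replicate 3 (adjusted p = 0.00404). For the large ribosomal RNA mt-Rnr2 the levels were 238, 208 and 235 FPKM with dexamethasone plus THSG, 245, 249 and 295 FPKM with dexamethasone, and 204, 207 and 195 FPKM with vehicle. This gave 0.38 ± 0.07 (SE, adjusted p = 0.00197), and 0.29 without replicate 3 (adjusted p = 0.00503). Since the libraries were prepared with an mRNA kit, the ribosomal values concern the molecules that kit retained.

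Among protein genes of the mitochondrial genome, mt-Nd4, a proton-pumping subunit of complex I, read 1773, 1734 and 1819 FPKM with dexamethasone plus THSG, 1902, 1896 and 2326 FPKM with dexamethasone, and 1376, 1727 and 1619 FPKM with vehicle. All dexamethasone libraries were above all vehicle libraries (log2 0.37, adjusted p = 0.00995; 0.28 and adjusted p = 0.0373 without replicate 3). The ATP synthase subunit mt-Atp6 read 3164, 2782 and 3066 FPKM with dexamethasone plus THSG, 3073, 3032 and 3655 FPKM with dexamethasone, and 2455, 2991 and 2561 FPKM with vehicle. Its log2 difference of 0.29 passed with all libraries (adjusted p = 0.0388) and not without replicate 3 (0.20, adjusted p = 0.144). Its neighbour mt-Atp8, transcribed on the same RNA, read 14209.6, 11462 and 13378 FPKM with dexamethasone plus THSG, 12996, 12261 and 16832 FPKM with dexamethasone, and 15636, 14710.1 and 11912 FPKM with vehicle. These values overlapped between all groups, with a log2 difference of -0.01 between dexamethasone and vehicle (95% interval -0.33 to 0.31).

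The genes mt-Atp8 and mt-Atp6 share 43 bases, mt-Nd4l and mt-Nd4 share 7 bases, and mt-Nd5 and mt-Nd6 share 14 bases on opposite strands in the GENCODE annotation of GRCm38. Values of such neighbours depend on how overlapping reads were counted, and the strand setting is not given in the sources used here. The remaining complex I genes had log2 differences of 0.15 (mt-Nd1), 0.02 (mt-Nd2), 0.27 (mt-Nd3), 0.27 (mt-Nd4l), 0.24 (mt-Nd5) and 0.20 (mt-Nd6). Those of complex III and complex IV were 0.18 (mt-Cytb, cytochrome b), 0.22 (mt-Co1), 0.15 (mt-Co2) and 0.12 (mt-Co3). None of these 10 passed with all libraries, but mt-Co1, mt-Nd5 and mt-Nd6 each passed under at least 1 of the 4 scalings tried. For all 15 mitochondrial genes, dexamethasone replicate 3 was the highest of the 9 libraries.

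**Figure D5:**
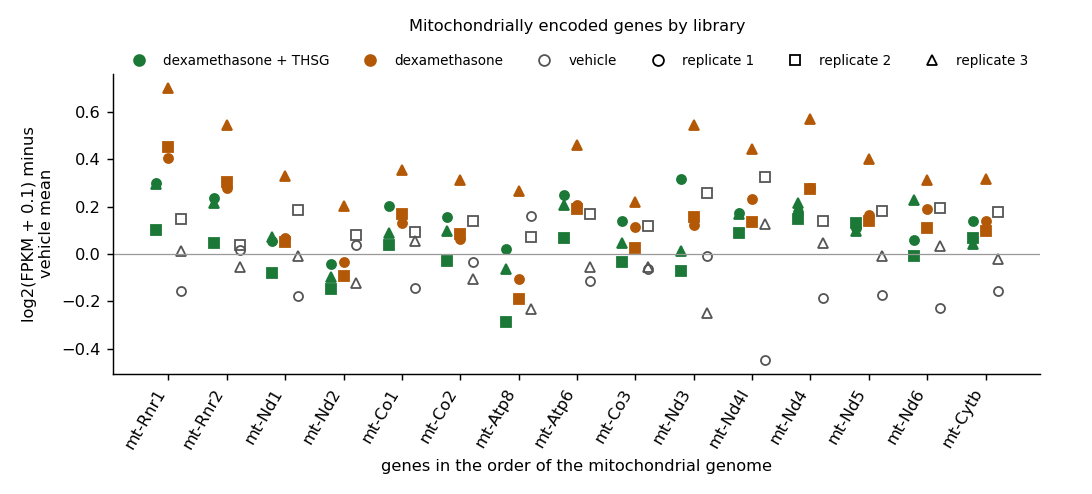
Each mitochondrially encoded gene in genome order, as log2(FPKM + 0.1) minus its vehicle mean (y axis), for every library; colours mark groups and symbols mark replicates. Dexamethasone replicate 3 (filled triangles) is the highest library for each gene, and mt-Rnr1 and mt-Rnr2 show dexamethasone above the other groups.

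Outside the subunits, 2 of 15 genes were called, both lower (13.3%, against 33.6% of all genes called and 20.9% called lower). The assembly factor Ndufaf3 read 4.42, 4.40 and 4.35 FPKM with dexamethasone plus THSG, 3.81, 3.78 and 3.38 FPKM with dexamethasone, and 4.48, 5.30 and 5.45 FPKM with vehicle. Dexamethasone libraries were the lowest (log2 -0.46, adjusted p = 0.00503), and the call held without replicate 3 (adjusted p = 0.0205). The Cox5b copy Cox5b-ps read 13.1, 8.61 and 9.04 FPKM with dexamethasone plus THSG, 9.17, 9.86 and 10.4 FPKM with dexamethasone, and 13.9, 15.8 and 14.1 FPKM with vehicle (log2 -0.57, adjusted p = 0.00662 for dexamethasone). It may share reads with Cox5b, so its own level is uncertain. The inhibitor Atp5if1 and the supercomplex factor Cox7a2l had log2 differences of -0.13 and 0.02.

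Dexamethasone plus THSG against dexamethasone asks what the added compound does. No member was called, as was the case for all 10716 genes in limma (0 calls, 777 with an unadjusted p under 0.05, 7.25%). Nuclear genes mostly had small positive differences, with a median log2 difference of 0.06 against 0.02 over all genes and 64 of 81 above 0. Among them 12 had an unadjusted p under 0.05, all higher (14.8%, against 5.05% of all genes), and 17 had groups that did not overlap, also all higher (21.0%, against 8.41% of all genes). Mitochondrial genes had negative log2 differences in 15 of 15, with a median of -0.12, and 4 had groups that did not overlap (26.7%, against 4.84% of all genes): mt-Nd4, mt-Nd5, mt-Rnr1 and mt-Rnr2. By complex, nuclear medians were 0.08 for complex I, 0.09 for complexes II and III, 0.11 for complex IV and 0.05 for complex V. Both signs held under each scaling tried (0.03 to 0.05 and -0.15 to -0.07). This comparison shares the dexamethasone libraries with the comparison of dexamethasone and vehicle, so a high or low dexamethasone library enters both with opposite sign. Of the mitochondrial genes 2 had an unadjusted p under 0.05, both lower (13.3%, against 2.2% of all genes). Without dexamethasone replicate 3 the medians were 0.03 and -0.04, 5 nuclear genes and 1 mitochondrial gene had an unadjusted p under 0.05, and 0 members were called, with 1 call among all genes (0.00933%). The unadjusted shares were then 6.17% of nuclear genes, all higher, and 6.67% of mitochondrial genes, all lower. In this fit 5.16% of all 10716 genes had an unadjusted p under 0.05, 396 higher and 157 lower. The 95% interval of a nuclear gene extended 0.15 to either side of its estimate in the median, with 3 libraries per group. This width is not adjusted for the number of genes tested. Larger differences, such as that of Ndufb2, also did not pass, so the absence of calls sets no limit of that size.

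In this contrast the largest positive value belonged to Ndufb2 (log2 0.45 ± 0.14 SE, unadjusted p = 0.00915, adjusted p = 0.572), for which the libraries of both groups did not overlap. Cox8a and Cox8b each differed by 0.28 (adjusted p = 0.563 and 0.581), and their dexamethasone plus THSG libraries all lay above the dexamethasone libraries. Sdhc, an anchor of complex II, read 65.8, 54.4 and 54.2 FPKM with dexamethasone plus THSG, 49.2, 48.1 and 47.0 FPKM with dexamethasone, and 45.2, 48.8 and 50.6 FPKM with vehicle. All 3 dexamethasone plus THSG libraries were higher than the other 6, replicate 1 most of all. Its log2 difference from dexamethasone was 0.27 (adjusted p = 0.473). The ATP synthase gene copy Atp5pb-ps read 3.26, 3.72 and 3.17 FPKM with dexamethasone plus THSG, 2.99, 2.45 and 2.31 FPKM with dexamethasone, and 2.52, 2.53 and 2.96 FPKM with vehicle. Its level was low in every library, and its log2 difference from dexamethasone was 0.38 (adjusted p = 0.589). Uqcrc1 differed by 0.19 and Cox5a and Cox5b by 0.26 each, none of which passed. Without dexamethasone replicate 3, Ndufb2 and Cox8b differed by 0.29 and 0.18, Cox8a and Sdhc by 0.23 and 0.25, Uqcrc1 by 0.13, Cox5a by 0.18 and Cox5b by 0.09. At the other end, Cox7a1 differed by -0.31 with overlapping groups (adjusted p = 0.856), the assembly factor Ndufaf4 by -0.26 without overlap (adjusted p = 0.687), and mt-Rnr1 and mt-Rnr2 by -0.29 and -0.21 without overlap (adjusted p = 0.572 and 0.589). Leaving out dexamethasone replicate 3 gave -0.14 for Cox7a1, -0.20 for mt-Rnr1 and -0.12 for mt-Rnr2.

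Dexamethasone plus THSG against vehicle shows where the combined treatment stood relative to vehicle-treated myotubes. Cox6a2, Ndufb4 and Sdhc rose and Ndufb10 fell, 4 of 81 nuclear genes (4.94%), against 29.1% of all genes called. The median log2 difference of the 81 genes was -0.05. Cox6a2 had the largest rise, 0.42 ± 0.10 (SE, adjusted p = 0.00654), close to its value for dexamethasone against vehicle, with which it shares the vehicle libraries. Ndufb4 differed by 0.18 (adjusted p = 0.0140) and Sdhc by 0.27 (adjusted p = 0.0168). Ndufb10, an accessory subunit of complex I, read 85.4, 86.6 and 88.7 FPKM with dexamethasone plus THSG, 89.9, 82.6 and 89.1 FPKM with dexamethasone, and 103, 96.3 and 91.4 FPKM with vehicle. All vehicle libraries were highest (log2 of dexamethasone plus THSG against vehicle -0.15, adjusted p = 0.0426). Ndufa1 had the lowest value among the subunits, -0.34, and did not pass (adjusted p = 0.0959). Without vehicle replicate 3, 11 nuclear genes were called.

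No mitochondrial gene was called in this comparison (0 of 15 in limma, 2 with an unadjusted p under 0.05, 13.3% against 39.1% of all genes), and 13 of 15 were positive, with a median of 0.09. The 2 were the ribosomal RNAs mt-Rnr1 and mt-Rnr2, at 0.23 and 0.17 (adjusted p = 0.0825 and 0.116). With dexamethasone replicate 3 left out of the shared estimate of spread, both passed (adjusted p = 0.0460 and 0.0434), with 29.8% of all genes called. Of the 15 other members, Ndufa12-ps, a copy of the complex I gene Ndufa12, read 56.9, 57.3 and 59.8 FPKM with dexamethasone plus THSG, 47.9, 51.9 and 46.8 FPKM with dexamethasone, and 46.4, 53.1 and 50.8 FPKM with vehicle. It rose by 0.21 against vehicle (adjusted p = 0.0171) with no overlap between groups, and Ndufa12 itself differed by -0.06 without a call. Cox5b-ps fell by 0.53 (adjusted p = 0.0114), and the 2 groups did not overlap for it. Atp5pb-ps and the assembly factor Ndufaf8 differed by 0.33 and -0.34 and did not pass.

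Genes that act upstream of these complexes were counted in the same fits. Of 27 genes of mitochondrial biogenesis and mitochondrial transcription, 24 were in the table, and in dexamethasone against vehicle 1 rose and 5 fell (2 fell without dexamethasone replicate 3). The 20.8% that fell and the 4.17% that rose compare with 20.9% and 12.7% of all genes. Slirp, which stabilises mitochondrial mRNA with Lrpprc, averaged 19.9 ± 1.48 FPKM with dexamethasone plus THSG, 18.9 ± 1.59 FPKM with dexamethasone and 27.2 ± 3.59 FPKM with vehicle (SD, n = 3 each). Its log2 difference from vehicle was -0.52 with dexamethasone (adjusted p = 0.00142) and -0.45 with dexamethasone plus THSG (adjusted p = 0.00405). The nuclear receptors' corepressor Nrip1 rose by 0.40 and 0.55 in these comparisons, with adjusted p of 0.00597 for dexamethasone and 0.00089 for dexamethasone plus THSG. Ppard, a nuclear receptor that promotes fatty acid oxidation in muscle, fell by 0.38 with dexamethasone and by 0.37 with dexamethasone plus THSG. The transcriptional coregulator Hcfc1 fell by 0.21 with dexamethasone and by 0.19 with dexamethasone plus THSG. Against vehicle, dexamethasone plus THSG had 1 gene of this list higher and 3 lower (4.17% and 12.5%, against 12.1% and 17% of all genes). Against dexamethasone 0 were called.

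Of 51 assembly factors outside the symbol rule, 48 were in the table. With dexamethasone 0 rose and 5 fell against vehicle (10.4%, below the 20.9% of all genes), and 4 fell without dexamethasone replicate 3. With dexamethasone plus THSG 1 rose and 2 fell against vehicle (2.08% and 4.17%, against 12.1% and 17% of all genes). Cox11, which inserts copper into complex IV, read 3.93, 3.08 and 4.87 FPKM with dexamethasone plus THSG, 2.19, 1.85 and 2.15 FPKM with dexamethasone, and 3.38, 3.99 and 3.44 FPKM with vehicle. The dexamethasone libraries lay below all others (log2 against vehicle -0.78 ± 0.16 SE, adjusted p = 0.00279). Against dexamethasone, dexamethasone plus THSG differed by 0.89 in log2, which did not pass over all genes (adjusted p = 0.227). The complex IV factor Cmc2 fell by 0.59 with dexamethasone and by 0.48 with dexamethasone plus THSG. Coa8, a complex IV factor, and Dmac1, a complex I factor, fell by 0.24 and 0.27 with dexamethasone against vehicle. With dexamethasone plus THSG against vehicle, the complex I factor Dmac2 rose by 0.30 and Taco1, a translational activator of mt-Co1, fell by 0.27.

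The citrate cycle with pyruvate dehydrogenase supplies NADH and succinate to the chain. The list of 19 genes for this part, all in the table, also held the mitochondrial pyruvate carrier genes Mpc1 and Mpc2. Of the 19, 1 rose and 0 fell in each comparison with vehicle (5.26% and 0%). These shares were below those of all genes, 12.7% and 20.9% with dexamethasone and 12.1% and 17% with dexamethasone plus THSG. Pdha1, the catalytic alpha subunit of pyruvate dehydrogenase, averaged 123.4 ± 6.16 FPKM with dexamethasone plus THSG, 123.5 ± 3.00 FPKM with dexamethasone and 106.0 ± 2.45 FPKM with vehicle (SD, n = 3 each). It was the gene called, with a rise of 0.22 in log2 in each comparison with vehicle (adjusted p = 0.00294 for dexamethasone and 0.00348 for dexamethasone plus THSG). Citrate synthase (Cs) differed by 0.11 with dexamethasone (adjusted p = 0.0509).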

How the data were processed

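C2C12 myotube RNA was isolated by a Hybrid-R kit, and sequencing libraries came from a TruSeq Stranded mRNA kit, per the labels' protocols. Reads were aligned with STAR 2.7.10a and counted with featureCounts on GRCm39 (mm39), per the submitters' processing notes. The deposited table is called a count table, but its values are fractional, at least 1 everywhere, and sum to similar totals, so they were treated as FPKM made by the authors. How counts became FPKM, the gene lengths, the strand setting and the filter on low values are not given in the sources used here. Read depth is unknown, so no counting interval is given, and the planned count test was not used.

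Values were transformed as log2(FPKM + 0.1), which understates changes of low genes. A linear model with 3 groups was fitted to all 10716 genes and 9 libraries with limma 3.58.1 in R 4.3.3, with an intensity trend and moderated two-sided tests. Benjamini-Hochberg adjustment ran over all genes in each of 3 comparisons, and a gene was called at an adjusted p under 0.05. No filter was applied, so all 111 members were tested. Intervals are 95% intervals of the fit. The procedure was tested on simulated data. The labels state no batch, so no replicate block was used in the main fit. Other pseudocounts, scalings, a filter, variance models, a replicate block, a GC and length correction and the omission of each library were tried as alternatives.

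Members and gene lists (complexes, biogenesis, assembly factors, citrate cycle, cell markers) were chosen with earlier results of these data known. Genes described by name were all mitochondrial genes, listed core and isoform subunits, per comparison and complex up to 3 called genes in each direction by smallest p, the 3 largest positive and negative differences per comparison, and up to 4 called genes per list. Ndufab1, Ndufc2, Ndufa2, Ndufv3, Ndufs5, Ndufb4b, Ndufb4c, Ndufa12, Uqcrq and Cs were added after their values were seen. Promoters are those of RefSeq on GRCm38.p6, and transcript lengths and overlaps come from the GENCODE annotation of GRCm38. In that annotation 10670 of the 10716 genes were matched by gene identifier and 46 were not. Ndufa4l2 and Cox4i2 are not analysed here, and 1 called complex I gene is counted but not reported by name.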

Additional observations from a re-analysis of the deposited data

How the results depend on the processing

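In dexamethasone plus THSG against dexamethasone, 0 nuclear and 0 mitochondrial genes were called under each of the 21 alternatives. In dexamethasone against vehicle, the 21 nuclear calls became 11 after median-ratio scaling, 13 after quantile normalization and 9 without the intensity trend, and ran from 8 to 31 when 1 library was left out. The 4 mitochondrial calls ran from 3 to 8 in that case. In dexamethasone plus THSG against vehicle, the 4 nuclear calls became 7 with equal sums, 11 with the GC and length correction and 10 when this was joined with the replicate block, and ran from 3 to 11 when 1 library was left out. The 0 mitochondrial calls became 1 with median-ratio scaling and 1 with the block and GC and length correction, and ran from 0 to 2 when 1 library was left out. Signs turned for Cox6a1 (0.0022) and Atp5mc2 (0.019) in dexamethasone against vehicle with the GC and length correction, alone or with the block. The causes of these changes were not tested. Samples with the same replicate number deviated together no more (r from -0.086 to 0.107 over 9 pairs of libraries, across genes) than others (-0.123 to 0.114 over 18), and the replicate block gave 25 nuclear and 4 mitochondrial calls in dexamethasone against vehicle, 0 and 0 in dexamethasone plus THSG against dexamethasone, and 5 and 0 in dexamethasone plus THSG against vehicle. Of the values of named genes under the alternatives, 3417 were classed as unchanged, 108 lost a call and 64 gained one. A further 178 moved beyond the spread, and 4 were classed as turned in sign. These classes do not count every change of sign in genes that were not called. Without dexamethasone replicate 3, the difference between dexamethasone and vehicle went from 0.03 to -0.14 for Cox7a1 and from -0.04 to 0.02 for Atp5mc3. DESeq2 and TMM scaling were not run because they need counts.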

Other observations

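Nuclear differences were also read against transcript length. Longest annotated transcripts of the 81 nuclear subunit genes and Cycs had a median of 1046 bases, against 3399 bases over the 10670 genes with a length. In dexamethasone against vehicle, the 27 genes with the shortest transcripts (360 to 834 bases) had a median log2 difference of -0.16, with 1 that rose and 9 that fell. The 28 genes of middle length had a median of -0.10, with 1 that rose and 3 that fell, and the 26 longest (1698 to 6310 bases) had -0.06, with 1 that rose and 6 that fell. Without dexamethasone replicate 3 these medians were -0.15, -0.06 and -0.06. Spearman's rho between length and log2 difference was 0.197 over the 81 genes and 0.166 over all 10670, across genes that share the same libraries. In dexamethasone plus THSG against dexamethasone rho was 0.039 over the 81 genes and -0.194 over all genes, and in dexamethasone plus THSG against vehicle 0.300 and 0.089. Without dexamethasone replicate 3, rho was 0.207 and -0.144 in dexamethasone plus THSG against dexamethasone, and 0.195 and 0.141 in dexamethasone against vehicle. The part of transcript length in the results was not tested.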
